A study of Mus musculus with 12 samples.

Results

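The integrated stress response (ISR) and the genes controlled by upstream open reading frames (uORFs) were followed here through 10 named genes, out of 55487 genes in the count file. They are Atf4, Atf5, Ifrd1, Ddit3, Trib3, Asns, Chac1, Ppp1r15a, Ppp1r15b and Sesn2. The genes were picked by name, for a low translation efficiency in WT liver and a change in KO, and Atf5 and Ifrd1 were picked because their ribosome footprints were higher in KO. Those footprint and translation efficiency values therefore describe the choice and are given with no test. Transcript abundance played no part in the choice and was tested. Of the 10 genes, 8 stood in the table of 10607 genes with footprints, while Ddit3 and Chac1 stood only in the count file.

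Livers came from 3 wild-type (WT) mice and 3 mice knocked out for Mettl5 (KO). The authors describe the WT mice as littermate controls. A WT and a KO mouse of the same number were taken as littermates, and each such pair is called a litter here. METTL5 methylates an adenosine of 18S rRNA at its N6 position. In KO mice a floxed exon of Mettl5 was removed in the whole body by Cre under the CMV promoter, on a background of C57BL/6 and 129S6 backcrossed to C57BL/6. All 6 livers were lysed with cycloheximide, and each gave 2 libraries, 12 in all: input (RNA-seq of the lysate, for transcript levels) and RPF (ribosome-protected fragments, or footprints). Age and sex of the mice were not used here.

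In the ISR, stress kinases phosphorylate the initiation factor eIF2, which slows the supply of initiator tRNA to ribosomes. Most mRNAs are then translated less, but a few whose leaders hold uORFs are translated more, because scanning ribosomes pass the inhibitory upstream frame before they are ready to start again. ATF4 made in this way switches on genes for amino acid supply and stress relief, and the PPP1R15 proteins bring a phosphatase to eIF2 and end the response. Liver runs this pathway when amino acids fall short, when proteins misfold or when mitochondria fail.

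Most of these mRNAs carried start codons upstream of the main one. In the principal transcript of each gene (GENCODE M21, mm10), 8 of the 10 genes (80%) had at least 1 ATG upstream of the main start, against 51.1% of the 8892 tested genes with a leader. Only Trib3 and Chac1 had none. An upstream frame that ran past the main start and out of its frame was found in 3 of the 10 genes (30%), namely Atf4, Atf5 and Ppp1r15a, against 15.5% of tested genes. The group was named for control by uORFs, so these shares describe the choice and nothing is read from them.

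The start codons below are shown for the genes on which the footprint results turn, with the ATG in capitals inside its neighbouring bases, 5′ to 3′ along the mRNA, as read from the GENCODE M21 transcripts. Distances are counted in bases from the A of the main ATG.
Atf5 upstream ATG 1, at -252, frame of 3 codons: gcccgcgcaATGgctc
Atf5 upstream ATG 2, at -121, frame of 58 codons that overlaps the main frame: ttcgccgccATGgagt
Atf5 main start: gtcacagccATGtcac
Atf4 upstream ATG 2, at -196, frame of 3 codons: gcggccaccATGgcgt
Atf4 upstream ATG 3, at -97, frame of 59 codons that overlaps the main frame: gcctaagccATGgcgc
Atf4 main start: ccccacaacATGaccg
Ifrd1 upstream ATG, at -202, frame of 52 codons: gagagaaacATGtatc
Ifrd1 main start: cggcccacgATGccga
Ppp1r15b upstream ATG 3, at -230, frame of 51 codons: ctagccgggATGgacc
Ppp1r15b main start: ggaaaggagATGgaga
In both Atf5 and Atf4 the last upstream frames before the main start were a frame of 3 codons and then a long frame that reads across it, and Atf4 had a further ATG at -475, with a frame of 36 codons, that is not shown. Ifrd1 had a single frame of 52 codons that ended before the main start, and Ppp1r15b had 3 frames that all ended before it.

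**Figure D1:**
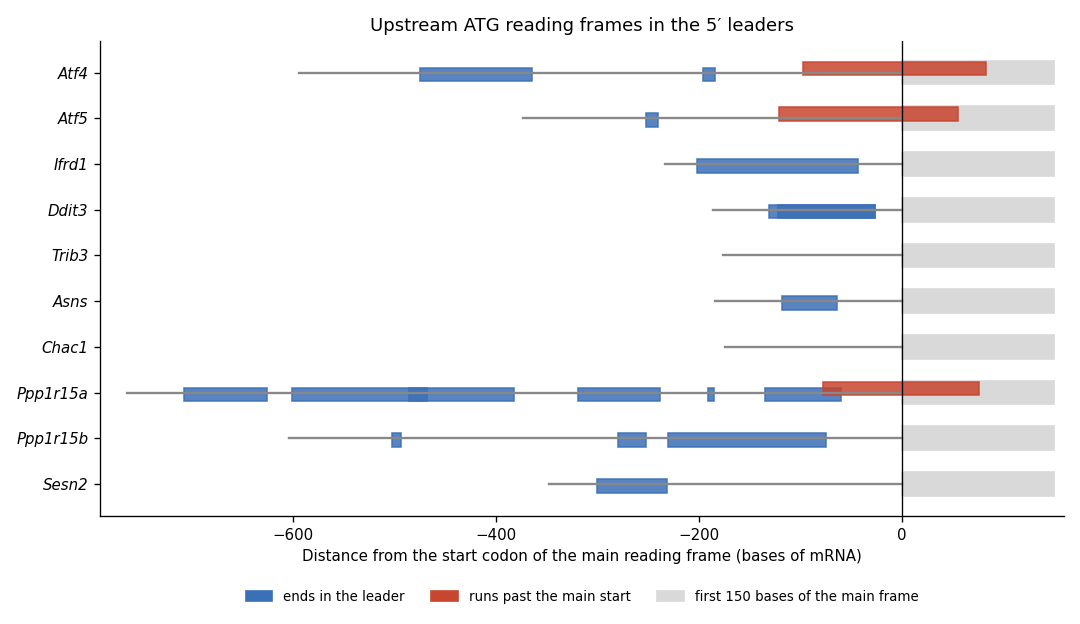
Leaders of the 10 genes, drawn to scale along the mRNA, with distance from the main start codon in bases on the x axis. Blue boxes are upstream ATG frames that end inside the leader, red boxes are frames that run past the main start, and grey boxes are the first 150 bases of the main frame. Red boxes appear for Atf4, Atf5 and Ppp1r15a, and no box appears for Trib3 and Chac1.

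Atf4 lies on chromosome 15 (80255184 to 80257541, + strand, mm10) and Atf5 on chromosome 7 (44812256 to 44816658, − strand). The leader of Atf4 was 594 bases long with 3 upstream ATGs, and that of Atf5 was 373 bases long with 2. Ifrd1 lies on chromosome 12 (40201567 to 40248504, − strand) and had 1 upstream ATG in 233 bases. Ppp1r15b lies on chromosome 1 (133131143 to 133139783, + strand) and had 3 in 604 bases. Ppp1r15a, on chromosome 7 (45522916 to 45526268, − strand), had the longest leader of the group at 764 bases, with 7 upstream ATGs. These counts depend on the transcript: over the basic transcripts they ran from 3 to 7 for Ppp1r15a, from 2 to 6 for Atf5 and from 1 to 2 for Ifrd1 and Asns.

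The remaining genes had 2 or fewer upstream ATGs. Ddit3 (chromosome 10, 127290774 to 127296288, + strand) had 2 upstream ATGs in 186 bases, which read to the same stop over 34 and 31 codons. Asns (chromosome 6, 7675169 to 7693254, − strand) had 1 in 184 bases, and Sesn2 (chromosome 4, 132492032 to 132510501, − strand) had 1 in 348 bases. Trib3 (chromosome 2, 152337422 to 152344032, − strand) and Chac1 (chromosome 2, 119351229 to 119354381, + strand) had leaders of 176 and 174 bases.

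Targets of ATF4 are known to carry a composite C/EBP-ATF element, for which the letters TGATGNAA were searched on both strands of RefSeq promoters (GRCm38.p6, 250 bases before to 50 after the start of the gene). A match was found in 3.97% of 32851 promoters, and among these genes in Trib3, Asns and Chac1. The 3 matches are shown because they fall in genes known as ATF4 targets, on the strand of the gene and with the match in capitals.
Trib3, chr2:152344028-152344057: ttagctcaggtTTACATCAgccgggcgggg
Asns, chr6:7693214-7693243: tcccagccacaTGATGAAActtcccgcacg
Chac1, chr2:119351038-119351067: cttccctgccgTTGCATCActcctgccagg
The match in Trib3 began 14 bases after the RefSeq start, that in Asns 23 bases before it and that in Chac1 193 bases before it, and those in Trib3 and Chac1 read on the opposite strand of the gene. Each letter match is a description of these windows.

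Input libraries held 8326325 to 11825643 counted read pairs, of which 2398804 to 5121304 fell on genes of the footprint table. RPF libraries held 4623826 to 9184242 reads on those genes. Mettl5 itself had 67, 56 and 103 RPF reads in WT mice 1 to 3 and 12, 9 and 10 in KO mice 1 to 3, without overlap. Its raw input counts were 21, 18 and 12 in WT against 13, 7 and 5 in KO. These overlapped only between WT mouse 3 and KO mouse 1, whose input library was the deepest. A read was worth 1.31 normalized reads in WT mouse 3 and 0.658 in KO mouse 1, so the overlap holds for raw counts only. Markers of hepatocytes were found in every liver, 8 of 8 detected. The 4 stellate cell markers summed to 871 to 991 normalized reads in WT input and 1020 to 1135 in KO input. The 5 erythroid markers summed to 626 to 810 in WT input and 540 to 606 in KO input. Both lists thus differed without overlap. Among 10057 single genes tested in input, every KO mouse was above every WT mouse in 4.23% and below in 4.34%. A sum can rest on its most abundant marker, so nothing is read from these differences. The part of both lists in the results below was not tested. The Kupffer cell, endothelium, cholangiocyte, lymphocyte and immediate early gene lists were all detected and overlapped between genotypes. In whole liver, fewer cells of a type and less RNA per cell cannot be told apart.

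Per kilobase of exon, input levels in WT liver spanned a wide range. Atf5 was highest at 314 ± 81.9 normalized reads per kilobase (SD, n = 3), followed by Ppp1r15b at 116 ± 5.27 and Atf4 at 109 ± 7.64, whose values overlapped. Then came Ppp1r15a at 10.6 ± 1.50, Trib3 at 8.88 ± 5.78, Sesn2 at 7.59 ± 5.53 and Ifrd1 at 7.55 ± 0.871. Each neighbouring pair among these 4 had overlapping ranges. Chac1, Asns and Ddit3 were lowest at 5.17 ± 4.73, 3.10 ± 2.41 and 2.75 ± 2.43, and their ranges overlapped as well. The genes thus split into 3 abundant transcripts and 7 scarce ones. The order of the scarce ones was resolved only in part at this depth. Ppp1r15a (8.93 to 11.7) lay above Ifrd1 (6.71 to 8.45), and Ifrd1 lay above Asns and Ddit3 (at most 5.37 and 4.59).

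Per kilobase of coding sequence, footprints in WT liver followed a similar order. Atf5 held 264 ± 43.1 normalized RPF reads per kilobase, Ppp1r15b 121 ± 9.63 and Atf4 74.1 ± 19.9. These 3 did not overlap with each other. Sesn2, Trib3, Ifrd1 and Asns held 19.6 ± 7.78, 16.6 ± 10.9, 15.3 ± 3.21 and 10.3 ± 5.01, and each overlapped its neighbour. Ppp1r15a was last at 2.63 ± 0.465, from 5 to 10 reads in a WT library. Whether RPF reads in leaders were counted with those in the coding sequence is not given in the sources used here, so for a gene with an upstream frame a footprint level may include reads from the upstream frame.

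Translation efficiency (TE) was taken as log2((RPF + 1)/(input + 1)) in each mouse. Among the 8994 genes that averaged 10 or more normalized reads in both assays, the median log2 TE in WT liver was 0.09. Atf4 stood at -1.75 ± 0.27 (SD, n = 3), the 6.26th percentile, Atf5 at -1.45 ± 0.16, the 9.35th, and Ppp1r15b at -1.36 ± 0.10, the 10.7th. Ifrd1 stood at -1.08 ± 0.45, the 15.4th percentile. Without a correction for length, the 4 lowest ranked genes were the 2 ATF factors, the constitutive eIF2 phosphatase subunit and Ifrd1. Ppp1r15a, with a mean under 10 in RPF, gave -2.39 ± 0.32 from few reads and was not ranked.

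The known ATF4 targets stood higher on this scale, without the length correction. Trib3 stood at -0.10 ± 0.02, the 43rd percentile, and Sesn2 at 0.24 ± 0.51, the 56.1st. Asns stood at 1.21 ± 1.00, the 88.9th percentile, from 1 to 8 input counts in a WT library. It averaged 8.47 normalized input reads in WT and 16.9 in KO. Asns thus passed the filter on low values through its KO input, and nothing is read from its rank. When RPF was taken per kilobase of coding sequence and input per kilobase of exon, Atf4, Atf5 and Ppp1r15b stayed low, at the 3.58th, 6.09th and 9.01st percentiles. Ifrd1 stood at the 29.6th on that scale, above Trib3 at the 25.6th, and Sesn2 and Asns stood at the 45.1st and 58.4th. The median percentile of the 7 ranked genes was 15.4 without the length correction and 25.6 with it.

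**Figure D2:**
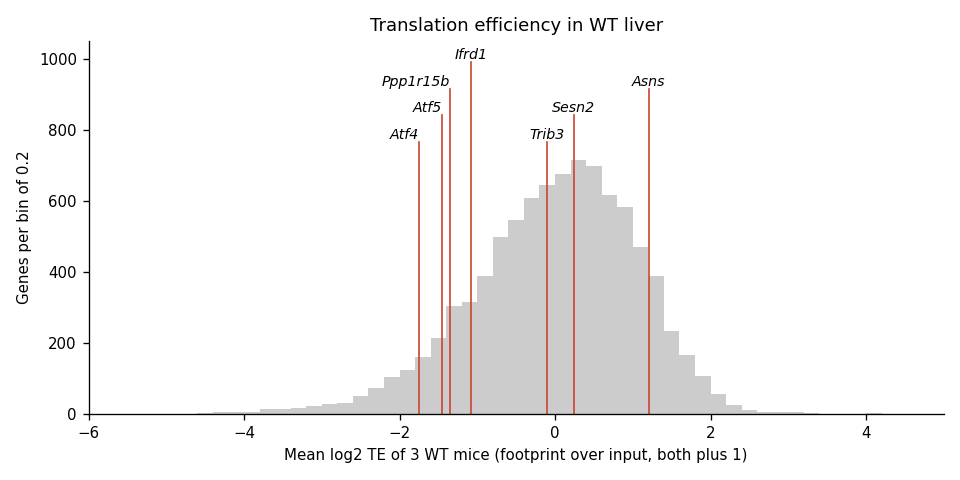
Histogram of mean log2 TE over 3 WT livers (x axis) for the genes tested, as genes per bin of 0.2 (y axis), with a red line for each ranked gene; 10 genes lie outside the axes. Atf4, Atf5, Ppp1r15b and Ifrd1 sit on the low side between -1.75 and -1.08, and Trib3, Sesn2 and Asns sit from -0.10 to 1.21.

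Across all genes with a leader, WT TE was lower with more upstream ATGs. The median log2 TE was 0.31 for the 4350 genes with none, -0.0015 for the 1974 with 1, -0.14 for the 945 with 2 and -0.39 for the 1623 with 3 or more. The median leader was longer in each class, at 111, 196, 271 and 421 bases. This TE has no length term and its input is counted over whole exons, so a longer leader can lower it by itself. The part of length in the trend was not tested. Spearman's rho between WT TE and the number of upstream ATGs was -0.23 over 8892 genes, which share libraries and are not independent replicates. Atf4 and Ppp1r15b, with 3 upstream ATGs each, lay below the lower quartile of -1.17 of their class, and Atf5, with 2, lay below the lower quartile of -0.90. Ifrd1, with 1, lay below the lower quartile of -0.72. Asns, also with 1, lay above the upper quartile of 0.65, from the few input counts given above.

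The first comparison asked whether transcript abundance of these genes differed between genotypes. It did not pass the test for any of the 7 genes with enough counts (Atf4, Atf5, Ifrd1, Trib3, Ppp1r15a, Ppp1r15b and Sesn2). With edgeR's quasi-likelihood test on counts and Benjamini-Hochberg adjustment, the adjusted p was 0.999 for each. In the background, 0 of 10057 genes tested (0%) passed, 348 had an unadjusted p under 0.05, and DESeq2 called 1 gene. Every KO mouse was above every WT mouse in 1 of the 7 genes, Atf5, against 4.23% of all genes, and every KO mouse was below in 1, Ppp1r15b, against 4.34%.

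Atf5, a basic leucine zipper factor linked to the mitochondrial stress response, had 767, 447 and 662 normalized input reads in WT mice 1 to 3 and 806, 791 and 823 in KO mice 1 to 3. The KO values lay close together above all WT values, and WT mouse 2 was the lowest. The log2 change was 0.39 (SE 0.17), with an unadjusted p of 0.0392 in edgeR's test, and it was 0.20 without WT mouse 2. Ifrd1, a transcriptional coregulator named for its induction by interferon, had 49.5, 43.9 and 39.3 in WT and 63.1, 65.1 and 48.0 in KO. KO mouse 3 fell within the WT range, although KO was higher in 3 of 3 litters, and the log2 change was 0.46 (SE 0.25).

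Ppp1r15b, the subunit that keeps eIF2 dephosphorylated in unstressed cells, had 673, 616 and 657 normalized input reads in WT and 547, 530.3 and 516 in KO. It was lower in KO in 3 of 3 litters, with a log2 change of -0.26 (SE 0.13) and an unadjusted p of 0.0620 in edgeR's test. Atf4 had 277, 241 and 254 in WT and 271, 239 and 291 in KO. Those ranges overlapped, and the log2 change was 0.08 (SE 0.15). Ppp1r15a, the stress-induced partner of Ppp1r15b also known as GADD34, had a log2 change of -0.22 (SE 0.35).

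Among the ATF4 targets the input spread between mice of a genotype exceeded the difference between genotypes. Trib3, a pseudokinase that restrains ATF4 signalling, had 25.7, 4.70 and 26.2 normalized input reads in WT and 10.5, 13.3 and 22.4 in KO, with a log2 change of -0.34 (SE 0.55). Without WT mouse 3 the value was 0.020, on the other side of 0. Sesn2, a stress-induced inhibitor of mTORC1 signalling, had 16.5, 14.1 and 48.5 in WT and 34.2, 30.6 and 24.0 in KO, with a log2 change of 0.17 (SE 0.43). WT mouse 3 alone was high, and without WT mouse 1 or WT mouse 2 the change was -0.057 or -0.13.

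The 3 scarcest transcripts were below the filter on counts. Ddit3, which encodes the pro-apoptotic factor CHOP, had 0, 4 and 6 input counts in WT mice 1 to 3 and 2, 9 and 1 in KO mice 1 to 3. Chac1, a glutathione-degrading enzyme, had 3, 11 and 2 in WT and 17, 3 and 0 in KO. Asns, asparagine synthetase, had 8, 1 and 7 in WT and 22, 2 and 21 in KO. In all 3 genes the genotypes overlapped, and a change was not detectable at this depth. A further annotated Ddit3 gene model lies on the same strand within the gene, and reads that fall on both could have been left uncounted.

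**Figure D3:**
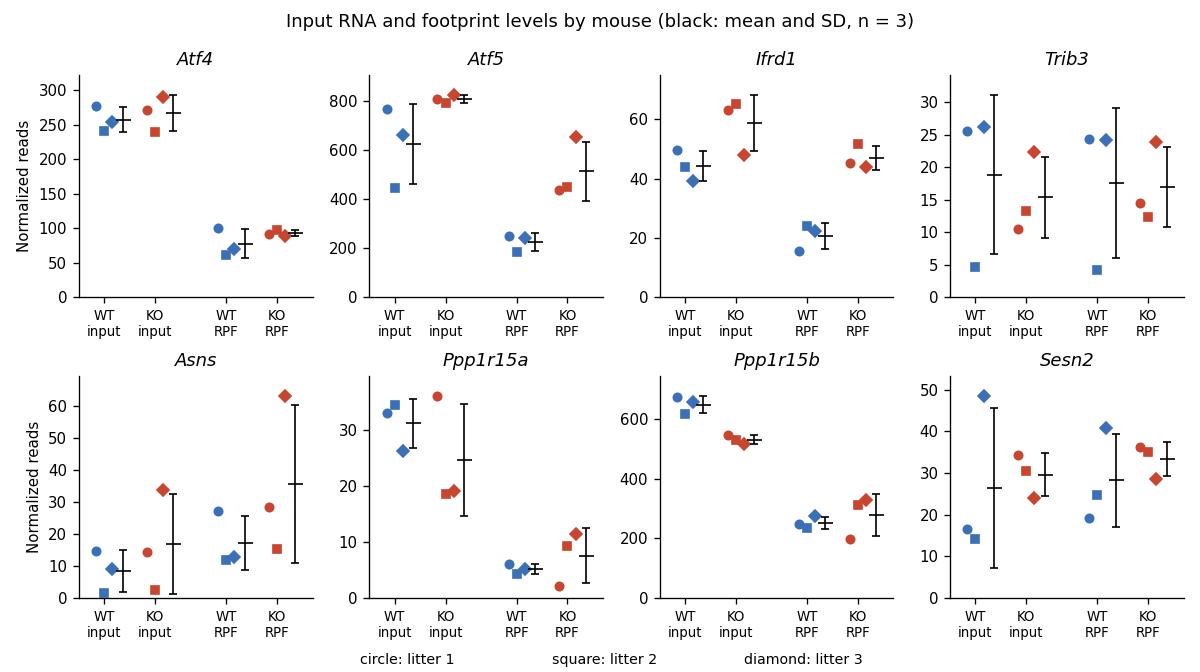
Normalized reads (y axis, linear from 0) in input and RPF for the 8 genes of the footprint table, with 1 point per mouse, WT in blue and KO in red, a marker shape per litter, and the mean with SD in black (n = 3). KO points lie above all WT points in RPF for Atf5 and Ifrd1, and the other 6 genes overlap in RPF.

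Footprints of Atf5 and Ifrd1 were higher in KO in every litter, as their choice implies. Atf5 had 250.1, 183 and 241 normalized RPF reads in WT mice 1 to 3 and 439, 448 and 653 in KO mice 1 to 3. The groups were well apart, and KO mouse 3 was the highest. The log2 change was 1.18 (SE 0.19, log2(value + 1) scale), or 2.26-fold. By litter it was 0.81, 1.29 and 1.43, so the smallest of the 3 differences was in litter 1.

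Ifrd1 had 15.7, 23.9 and 22.2 normalized RPF reads in WT and 45.2, 51.6 and 44.0 in KO. These values rested on 18 to 43 reads per WT library and 46 to 84 per KO library. The genotypes did not overlap, and the 3 KO mice lay close together. The log2 change was 1.17 (SE 0.24), or 2.25-fold, and by litter it was 1.47, 1.08 and 0.96. The changes of Atf5 and Ifrd1 were of like size, and their input levels per kilobase differed widely. Both genes were chosen for higher footprints in KO, so nothing is read from the like size.

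Atf4 itself, the factor at the head of the response, had 101, 61.4 and 70.1 normalized RPF reads in WT and 92.4, 97.1 and 88.9 in KO. WT mouse 1 was the highest of the 6, so the genotypes overlapped. Footprints were lower in KO in litter 1 and higher in litters 2 and 3. The log2 change was 0.29 (SE 0.18). The difference between this change and that of Atf5 was not tested.

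The phosphatase subunits overlapped between genotypes. Ppp1r15b had 247, 236 and 275 normalized RPF reads in WT and 198, 312 and 328 in KO, with a log2 change of 0.11 (SE 0.16). KO mouse 1 was the lowest of the 6 and the other KO mice were the highest. Ppp1r15a had 7, 5 and 10 RPF reads in WT mice 1 to 3 and 3, 15 and 12 in KO mice 1 to 3, too few to pass the filter on low values.

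The ATF4 targets were scattered. Asns had 27.0, 11.9 and 12.9 normalized RPF reads in WT and 28.5, 15.4 and 63.1 in KO, with a log2 change of 0.87 (SE 0.87) carried mainly by KO mouse 3. Without KO mouse 3 Asns fell below the filter. Trib3 had 24.4, 4.27 and 24.2 in WT and 14.6, 12.3 and 23.9 in KO, with a log2 change of 0.20 (SE 0.67). WT mouse 2 alone was low in Trib3, in input and in RPF alike. Sesn2 had 19.2, 24.7 and 40.7 in WT and 36.1, 35.0 and 28.7 in KO, with a log2 change of 0.29 (SE 0.38).

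All 7 genes past the filter on low values had a fitted footprint change above 0, with a median of 0.29, against a median of -0.033 and 46% of genes above 0 over the 8994 genes tested. The sign for Trib3 depended on the setting: -0.11 with edgeR on whole reads, -0.55 without WT mouse 2 and -0.059 without KO mouse 3. Its mean was lower in KO, at 16.9 normalized RPF reads against 17.6 in WT. Ppp1r15b stood at -0.023 without KO mouse 3. The genes were chosen with this contrast known, so nothing is read from the count above 0. Every KO mouse was above every WT mouse in 2 of the 7 (Atf5 and Ifrd1), against 6.97% of all genes, and below in 0 of 7, against 12.9%. At an adjusted p under 0.05 in limma, 44 of all genes (0.489%) passed and 15 of them were higher in KO (0.167%). With litter as a block, which pairs the mice, 293 genes passed. The count was 0 without KO mouse 2, 226 without KO mouse 1 and 7 with the trend with GC content removed.

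**Figure D4:**
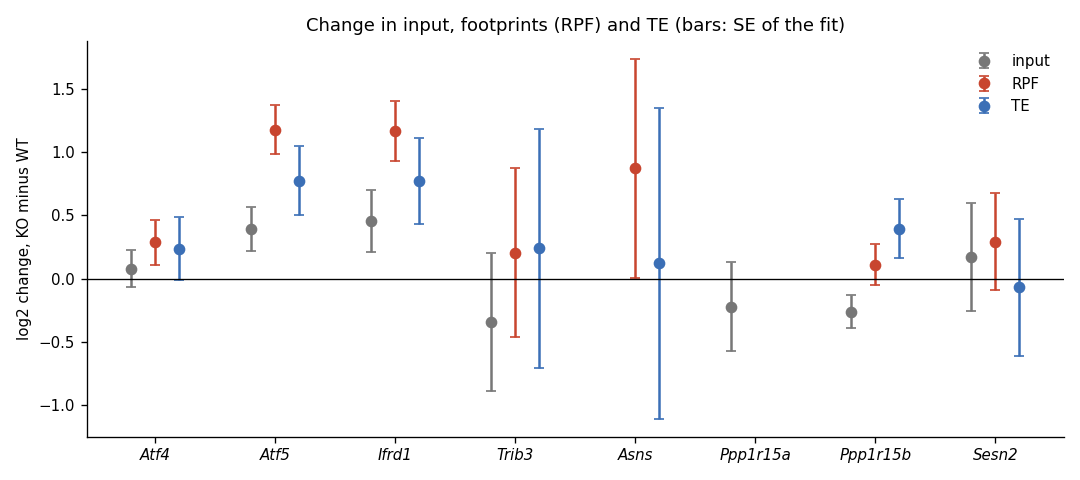
Log2 change between KO and WT (y axis) in input, RPF and TE for the 8 genes with a fit, with the SE of the fit as bars; input comes from the counts, RPF and TE from log2(value + 1). Atf5 and Ifrd1 show RPF changes of 1.18 and 1.17 above input changes of 0.39 and 0.46, and Trib3 and Asns have the widest bars. The TE bars do not use the pairing of input and RPF within a mouse.

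The TE change sets the footprint change against the input change in one model. That model did not pair the input and RPF libraries of a mouse, so its SEs can include variation that both share. The TE change was 0.77 (SE 0.27) for Atf5. Its log2 TE was -1.61, -1.29 and -1.46 in WT mice 1 to 3 and -0.88, -0.82 and -0.33 in KO mice 1 to 3, without overlap. For Ifrd1 the TE change was also 0.77 (SE 0.34), with -1.60, -0.85 and -0.80 in WT and -0.47, -0.33 and -0.12 in KO. Both genes had a higher TE in KO in 3 of 3 litters, yet both stayed below a log2 TE of 0 in every KO mouse. The fitted input changes of both genes were above 0 as well and did not pass the test.

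In the remaining genes TE overlapped between genotypes. The log2 TE change was 0.40 (SE 0.23) for Ppp1r15b, 0.24 (SE 0.25) for Atf4, 0.24 (SE 0.94) for Trib3, 0.12 (SE 1.23) for Asns and -0.07 (SE 0.54) for Sesn2. The log2 TE of Trib3 taken within each mouse varied far less than its SE implies. It was -0.10 ± 0.02 in WT and 0.14 ± 0.27 in KO (SD, n = 3). Ppp1r15b had a log2 TE of -1.44, -1.38 and -1.25 in WT and -1.46, -0.76 and -0.65 in KO. KO mouse 1 lay beside the WT mice and the other KO mice stood above them. The median of the 7 genes was 0.24, against -0.011 over all genes.

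Every KO mouse was above every WT mouse in TE for 2 of the 7 genes, against 6.08% of all genes, and below in 0 of 7, against 7.34%. No gene of the 8994 tested (0%) passed an adjusted p of 0.05 in limma for TE, with 423 at an unadjusted p under 0.05. TE taken within each mouse called 0 genes without litter and 9 with litter as a block.

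Over all genes the TE change was nearly unrelated to the number of upstream ATGs, with Spearman's rho of 0.042 over 8892 genes. The median TE change was -0.025 for genes with none, -0.0082 with 1, 0.025 with 2 and 0.0037 with 3 or more.

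The footprint change moved with the GC content of the coding sequence, with Spearman's rho of 0.46 over 8892 genes. Atf5 was among the GC-rich genes at 65.4%, and Ifrd1 among the GC-poor ones at 45.6%. With the trend of each library with GC content removed, the log2 footprint change of Atf5 was 0.82 and its TE change 0.47, and those of Ifrd1 were 1.34 and 0.92. Trib3, at 60.6% GC, went from 0.20 to -0.025 in footprints. Atf4, at 51.8%, went from 0.29 to 0.32. Removal of the GC trend thus lowered Atf5 and raised Ifrd1, and in both the change stayed above 0. Both genes were chosen for higher footprints in KO, so nothing is read from that sign. The part of GC content in their changes was not tested.

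**Figure D5:**
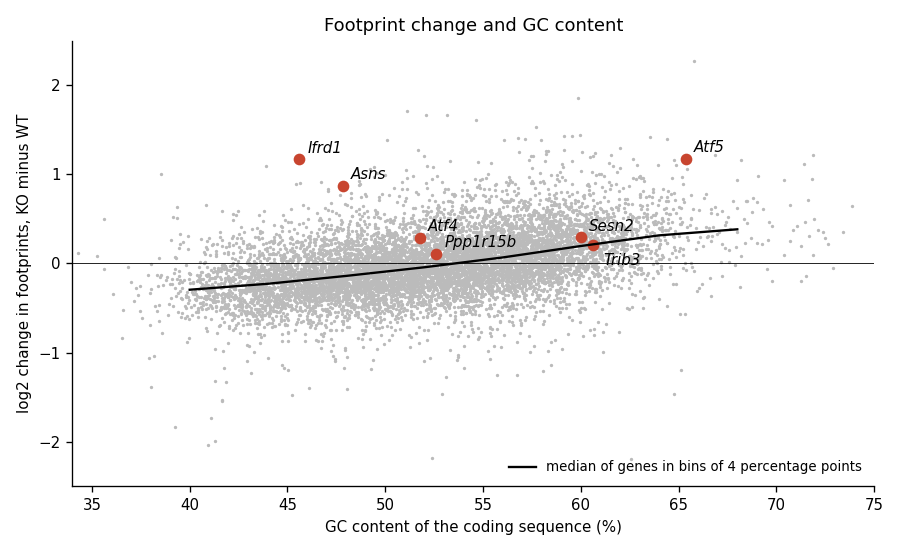
Log2 footprint change between KO and WT (y axis) against the GC content of the coding sequence in percent (x axis) for the genes tested, in grey, with the median in bins of 4 percentage points as a black line; 6 genes lie outside the axes. Ifrd1 stands at 1.17 and 45.6% GC, where the line is below 0, and Atf5 at 1.18 and 65.4%, where the line is above 0.

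The wider pathway was read from 5 lists that hold known ATF4 targets, the eIF2 machinery, other mRNAs with uORFs and mitochondrial stress genes. In each list 0 genes passed the adjusted p of 0.05 in input (edgeR), in RPF and in TE (both limma), beside 0%, 0.489% and 0% of all genes, so for lists of this size the count says nothing about the pathway. For the genes named below the 3 with the largest fitted footprint change of each list are given.

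ATF4 targets for amino acid synthesis and transport had 9 of 18 genes tested in RPF, with 6 changes above 0 and 3 below and a median log2 change of 0.10. Slc7a5, a large neutral amino acid transporter, had 7.84, 5.97 and 7.22 normalized RPF reads in WT and 20.9, 9.22 and 22.0 in KO, a log2 change of 1.11 (SE 0.49) with an adjusted p of 0.339 in limma. Slc1a4, a transporter of alanine and serine, had a log2 change of 0.68 (SE 0.30; limma, adjusted p = 0.329). Psph, the last enzyme of serine synthesis, went the other way at -0.94 (SE 0.38; limma, adjusted p = 0.295), with 16.6, 18.8 and 23.2 in WT and 11.1, 10.4 and 7.64 in KO. Slc7a5 and Psph averaged over 10 reads in 1 genotype only, so they passed the filter on low values through the group where they were high, and nothing is read from their separation.

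Stress regulators and secreted factors among ATF4 targets had 13 of 19 genes tested in RPF, 5 above 0 and 8 below, with a median of -0.037. Ddit4, an mTORC1 inhibitor, had a log2 footprint change of 0.75 (SE 0.67), Trib1, a pseudokinase related to Trib3, -0.60 (SE 0.34), and Cebpg, a dimer partner of ATF4, -0.57 (SE 0.33). None of these 3 passed in limma, with adjusted p values of 0.686, 0.479 and 0.479.

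The eIF2 subunits, eIF2B subunits and eIF2 kinases had 12 of 12 genes tested, 5 above 0 and 7 below, with a median log2 footprint change of -0.10 and a median TE change of 0.15. Eif2ak2, which encodes the double-stranded RNA kinase PKR, had 118, 79.3 and 95.4 normalized RPF reads in WT and 67.4, 55.9 and 45.9 in KO. Its log2 change was -0.78 (SE 0.25; limma, adjusted p = 0.170), and every KO mouse was below every WT mouse, as in 12.9% of all genes. The eIF2 alpha and beta subunits Eif2s1 and Eif2s2 had changes of -0.58 (SE 0.18; limma, adjusted p = 0.148) and -0.60 (SE 0.20; limma, adjusted p = 0.182). With litter as a block, when 293 of the 8994 genes passed, Eif2s1 was the 1 gene of the list that did, and with litter as a term in each assay, or with the GC trend removed as well, 0 genes of the list passed.

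Other mRNAs with known regulatory upstream frames had 7 of 10 genes tested, 4 above 0 and 3 below, with medians of 0.092 in RPF and 0.22 in TE. Ibtk, whose leader is known to hold uORFs, had a log2 footprint change of -0.48 (SE 0.15; limma, adjusted p = 0.149), with 252, 186 and 219 normalized RPF reads in WT and 130.0, 162 and 178 in KO. Ucp2, a mitochondrial carrier, had 0.46 (SE 0.31), and Cebpb, a liver transcription factor, 0.36 (SE 0.39). Ibtk lay in the direction opposite to Atf5 and Ifrd1.

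Mitochondrial stress genes that ATF5 or ATF4 are known to drive had 6 of 7 genes tested, 2 above 0 and 4 below, with a median of -0.16 in RPF. The chaperonin genes Hspe1 and Hspd1 had log2 footprint changes of -0.43 (SE 0.27) and -0.34 (SE 0.15), and the mitochondrial protease gene Lonp1 had 0.24 (SE 0.14). The adjusted p values in limma were 0.512, 0.336 and 0.480 for these 3. Beside the higher Atf5 footprints, footprints of this list thus went both ways and none passed the test. Lonp1 and Trib3 were above 0, and the chaperonin genes were among the 4 below. In input 3 genes of the list were above 0 and 3 below, with a median log2 change of 0.035, and none passed.

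The genes whose RPF pattern over the 6 livers was most like that of Atf5 were Col1a2, Tln2, Fbxo31, Rhobtb1 and Hcfc1r1, with Pearson's r of 0.998, 0.992, 0.982, 0.978 and 0.977 among 5704 genes with a mean RPF of at least 50. For Ifrd1 they were Eif4ebp2, Brat1, Atxn7l3b, Pla2g15 and Serpinh1, with r of 0.987, 0.986, 0.982, 0.977 and 0.972. The measure is a description over 6 libraries that share their preparation. It uses the footprint values by which Atf5 and Ifrd1 were chosen, so likeness to them selects genes higher in KO. The fitted log2 footprint changes of the named genes ran from 0.44 (Fbxo31) to 1.04 (Serpinh1). No gene of the 5 for Atf5 was among the 5 for Ifrd1, and with 5 of 5704 genes named for each, nothing is read from that.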

How the data were processed

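Input and RPF libraries of the 6 livers were read from 2 deposited tables. The authors used BBDuk to trim input reads and STAR 2.7.3a to align them to mm10, and made the deposited counts of uniquely mapped read pairs over exons, by strand, with featureCounts (version 1.6.0 per the labels, 2.0.3 per the file header). Multimapping reads were not counted, and counting by strand tells opposite-strand neighbours of Atf5, Ifrd1, Ddit3 and Ppp1r15a apart. For RPF the authors removed rRNA reads and mapped read 1 with RiboToolkit at a single location, without removing duplicates. The signal in the deposited footprint table, named RPKM by the authors, was found to be reads divided by 1 factor per library: 100% of values in each of the 12 columns were whole multiples of 1 read, within 0.01 read, so no gene length enters. The factors and the gene filter are not given in the sources used here. The authors' fold change and p-value columns of that table were not used. Precision is limited by counting error at low reads, and intervals over mice are SDs.

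Input was tested with edgeR 4.0.16 in R 4.3.3 (TMM, filterByExpr, robust quasi-likelihood, two-sided). SEs of edgeR changes are the absolute log2 change over the root of the F statistic. For RPF and TE, limma 3.58.1 (eBayes, trend and robust) was fitted on log2(value + 1) over 12 libraries, with 4 group means and genes that averaged 10 or more in both assays; the log2(value + 1) scale understates changes of low genes. Adjustment was by Benjamini-Hochberg over all genes tested. The design assumed length-normalized values for the table, and edgeR on the recovered whole reads was run as an alternative. Scripts were tested on simulated data. Leaders, upstream ATGs and GC content came from GENCODE M21 (mm10), with a GC value for 99.8% of genes tested, and promoters from RefSeq (GRCm38.p6), which held an entry for 9 of the 10 genes.

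The genes and lists were chosen with earlier results of these data known, and likewise the alternatives. Named genes were the 10 genes, the 3 of each list with the largest footprint change, Mettl5, and the 5 genes most like Atf5 and Ifrd1. The shared numbers were taken to mark littermates, although the sample titles give only the number. Deviations from the group means correlated between these littermates, across genes, at 0.24, 0.14 and 0.19 in footprints (litters 1 to 3) and at 0.015, 0.091 and 0.058 in input. Between the other WT and KO mice they ran from -0.24 to 0.081 in footprints and from -0.080 to 0.018 in input. In input, litter 1 thus lay below the highest of the other pairs. Each mouse gave 1 liver, so p-values in input measure the spread between mice. The main RPF and TE fits used 1 spread per gene over all 12 libraries. The TE fit did not pair the input and RPF of a mouse, so its p-values do not measure the spread of TE between mice. DESeq2 1.42.0, RLE size factors, centred columns, other filters and pseudocounts, edgeR on whole reads, removal of the GC trend (natural spline, 4 degrees of freedom), litter and mouse blocks, and leaving out each mouse in turn were the alternatives.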

Additional observations from a re-analysis of the deposited data

How the results depend on the processing

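Of 541 values recomputed for 40 results, 514 kept their direction and side of the threshold or stayed within the spread between mice. The count of genes called in input, 0, became 30 with no count filter, 1 with DESeq2 and 2 with the replicate block of litter, and 0 to 21 with a mouse left out (2 without WT mouse 3, and 21 and 5 when KO mouse 2 or 3 was dropped). The count in RPF, 44, became 7 with the GC trend removed, 293 with the replicate block and 67 with both, and 0 to 226 with a mouse left out: 28, 9 and 16 without WT mouse 1, 2 or 3, and 226, 0 and 11 without KO mouse 1, 2 or 3. With litter as a term of its own in each assay, a form kept as an alternative after its count was seen, 236 genes passed, and 49 with the GC trend removed. The count in TE, 0, became 9 with the replicate block on TE within each mouse and stayed at 0 with any mouse left out. For input of the 10 genes and for the lists, the block changed the call of Eif2s1 in RPF alone, and with litter as a term in each assay that call was absent. The median percentile of WT TE, 15.4, was 25.6 per length and 13.2 to 21 with a WT mouse left out. In input the change of Trib3 was 0.020 without WT mouse 3 and that of Sesn2 was -0.057 and -0.13 without WT mouse 1 and 2; with any 1 mouse left out they ran from -0.80 to 0.020 and from -0.13 to 1.00. The footprint change ran from 0.82 to 1.28 for Atf5 and from 0.99 to 1.34 for Ifrd1 over all settings, and the TE change from 0.47 to 0.87 and from 0.52 to 0.92. The cause of these shifts was not tested, apart from fewer mice or genes where an alternative leaves some out. Depth limits Ddit3, Chac1, Asns and Ppp1r15a most.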
